A study of Mus musculus with 24 samples.

Results

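Isocitrate dehydrogenases convert isocitrate to 2-oxoglutarate, and 8 mouse genes of this step and of the metabolism of 2-oxoglutarate and 2-hydroxyglutarate were examined, of 22371 genes measured by RNA-seq. They were Idh1, Idh2, Idh3a, Idh3b, Idh3g, D2hgdh, Ogdh and Glud1. They were chosen by name for their enzyme activity and not by their measured values, though with earlier results of these data known. All 8 were in the expression tables. The cells came from mouse bone marrow, had been made immortal with the homeobox factor HOXA9 and carried a vector for IDH1 R132H, an enzyme changed at the arginine of its active site that is altered in gliomas and acute myeloid leukaemias. One library was prepared from untreated cells and 1 from cells given vitamin C at a final concentration of 0.345 mM, added at 0, 24 and 48 h and harvested at 72 h. Each chromatin assay likewise had 1 untreated and 1 vitamin C library of the mutant cells, and cells with a vector for IDH1 wt entered the methylated DNA immunoprecipitation (MeDIP-seq) alone. Both conditions were grown in DMEM with serum, murine IL-3, human IL-6 and murine SCF, the time at which untreated cells were harvested is not given, and the labels do not say how many cultures or clones the cells came from. With 1 library a condition no test between conditions was possible. Intervals below are exact 95% intervals that treat reads or peaks as independent and cover counting error and no difference between cultures.

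The normal enzymes work in different compartments. Idh1 is the cytosolic and peroxisomal enzyme and Idh2 the mitochondrial enzyme that use NADP+, and they make NADPH. Idh3a, Idh3b and Idh3g encode the subunits of the mitochondrial enzyme of the tricarboxylic acid (TCA) cycle that uses NAD+. IDH1 R132H instead reduces 2-oxoglutarate to D-2-hydroxyglutarate, which inhibits TET enzymes and other dioxygenases that need 2-oxoglutarate, and vitamin C is known to enhance the activity of TET enzymes. D2hgdh oxidises D-2-hydroxyglutarate back to 2-oxoglutarate. Ogdh is the first component of the mitochondrial complex that consumes 2-oxoglutarate, and Glud1 interconverts glutamate and 2-oxoglutarate. The species of the IDH1 complementary DNA in the vector is not stated, and reads from it may have been assigned to Idh1, so the level of Idh1 below may hold both.

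The 8 genes lay on 7 chromosomes of the mouse genome. In mm10 (GRCm38.p6, RefSeq) Idh1 spanned 65158616 to 65186479 of chromosome 1, Idh2 80094845 to 80118608 of chromosome 7, Idh3a 54586511 to 54604662 of chromosome 9 and Idh3b 130279309 to 130284451 of chromosome 2. Idh3g spanned 73778963 to 73786897 of chromosome X, D2hgdh 93823195 to 93853857 of chromosome 1, Ogdh 6291597 to 6359094 of chromosome 11 and Glud1 34310727 to 34345033 of chromosome 14. The RefSeq promoter table held windows of 300 bases, from 250 before the gene start to 50 from it, for 7 of the 8 genes. Idh3a is named below without a promoter sequence. Windows are shown for Idh1, Idh3b, Idh3g and D2hgdh, as examples with a PU.1 or Runx1 peak in 1 or both libraries, and for Idh2, the gene with the largest RNA difference; those of Ogdh and Glud1, which also carried such peaks, are not shown. Each is written 5′ to 3′ on the strand of its gene. Capitals mark GGAAG, the core read by factors of the PU.1 (ETS) family, and TGTGGT, read by Runx factors, with its variant TGCGGT. Both strands were searched, and a match on the other strand appears as its reverse complement.
Idh1 (upstream of its 2 listed starts; minus strand, chr1:65186430-65186729): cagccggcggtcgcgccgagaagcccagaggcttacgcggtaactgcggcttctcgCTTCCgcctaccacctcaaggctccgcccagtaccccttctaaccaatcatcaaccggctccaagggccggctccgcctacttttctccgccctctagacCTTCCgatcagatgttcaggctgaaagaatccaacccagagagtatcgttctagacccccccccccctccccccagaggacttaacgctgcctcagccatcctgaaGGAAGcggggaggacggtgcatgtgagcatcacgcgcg
Idh2 (minus strand, chr7:80115301-80115600): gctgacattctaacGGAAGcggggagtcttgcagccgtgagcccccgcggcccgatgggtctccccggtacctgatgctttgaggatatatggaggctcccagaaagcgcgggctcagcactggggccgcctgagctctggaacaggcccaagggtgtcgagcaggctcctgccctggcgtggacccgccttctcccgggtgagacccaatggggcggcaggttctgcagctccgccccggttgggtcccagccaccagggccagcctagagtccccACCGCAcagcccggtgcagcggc
Idh3b (minus strand, chr2:130284402-130284701): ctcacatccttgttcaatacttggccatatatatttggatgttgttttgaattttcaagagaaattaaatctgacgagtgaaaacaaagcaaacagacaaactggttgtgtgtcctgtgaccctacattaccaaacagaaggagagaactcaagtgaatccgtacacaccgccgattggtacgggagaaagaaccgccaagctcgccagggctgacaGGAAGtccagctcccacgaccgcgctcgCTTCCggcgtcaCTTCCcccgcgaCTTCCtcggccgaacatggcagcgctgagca
Idh3g (minus strand, chrX:73786848-73787147): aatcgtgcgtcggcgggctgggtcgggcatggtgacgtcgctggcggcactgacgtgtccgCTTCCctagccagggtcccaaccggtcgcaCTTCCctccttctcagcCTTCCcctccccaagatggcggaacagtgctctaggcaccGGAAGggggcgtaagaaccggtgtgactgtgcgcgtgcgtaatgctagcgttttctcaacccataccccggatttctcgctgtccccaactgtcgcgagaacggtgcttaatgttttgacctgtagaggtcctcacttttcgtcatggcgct
D2hgdh (plus strand, chr1:93824990-93825289): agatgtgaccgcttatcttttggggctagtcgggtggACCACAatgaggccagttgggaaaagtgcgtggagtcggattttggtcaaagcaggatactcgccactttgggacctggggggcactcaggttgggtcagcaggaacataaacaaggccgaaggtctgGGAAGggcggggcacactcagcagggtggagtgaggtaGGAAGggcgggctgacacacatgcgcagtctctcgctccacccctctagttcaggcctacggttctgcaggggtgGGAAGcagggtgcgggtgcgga

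GGAAG was found in 71.4% of the 32851 promoter windows of the table and in a window of each of the 7 genes, so its presence does not set them apart. Idh3b and Idh3g held 4 matches each in their single window. The longer PU.1 sequence GAGGAAG, which contains GGAAG, was found in 13.6% of all windows and, among the 7 genes, in that of Idh3b, 19 bases past the start on the other strand. A Runx sequence was found in 22.4% of all windows and in those of D2hgdh, 213 bases before the start, and Idh2, 27 bases past it. GGGCGG, read by Sp and Klf factors, was in 35.7% of all windows and occurred 3 times in Glud1, 2 times each in Idh2, D2hgdh and the upstream Idh1 window, and 1 time in the other Idh1 window and in each of 4 of the 6 Ogdh windows, some of which overlap. GGAAG was added to the search after the peaks had been seen. These matches describe letters and are not mapped sites.

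Depth was 86804487 counts in the untreated and 111453443 in the vitamin C library, of which the 8 genes held 0.153% and 0.140%. Of 8 markers of myeloid progenitors, 8 had at least 1 RPKM (reads per kilobase of gene model, scaled to library size) in both libraries, and their summed level was 6407 RPKM untreated and 3103 with vitamin C. That sum is lower in the vitamin C library mainly through Hoxa9, which the immortalizing vector may also supply, and the granule genes Ctsg and Mpo. Each of the 8 was lower with vitamin C, among them Kit, at 32.1 RPKM untreated and 5.07 with vitamin C. Summed markers of B cells, T cells and fibroblasts stood at or below 0.116 RPKM in each library, with Pax5, Cd3e, Cd8a and Col1a2 at 0 in both. Markers of mast cells and basophils summed to 1974 RPKM untreated and 2648 with vitamin C, mostly from Cpa3. All 4 of them were higher with vitamin C, among them Cma1, at 0.359 and 14.6 RPKM, and Ms4a2, at 1.23 and 5.78. Markers of megakaryocytes summed to 159 and 152 RPKM, with Pf4 higher and Itga2b lower with vitamin C. Those of erythroid cells summed to 340 and 380, almost wholly from Hbb-bs, with Klf1 below 1 RPKM. The part of a shift between myeloid cell states in the values below was not tested, and in bulk RNA fewer cells of a type and less RNA per cell cannot be told apart.

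All 8 genes were expressed in both libraries, and Idh2 had the largest difference of the 8. Its level was 1.65-fold lower with vitamin C, D2hgdh was 1.31-fold lower, Idh3g 1.20-fold lower, and Ogdh was 1.17-fold higher. Idh1, Idh3a, Idh3b and Glud1 differed by less than 12% in either direction. On the log2 scale, with 0.5 RPKM added to each value, 6 of the 8 differences were negative and 2 positive, with a median of −0.16, beside a median of −0.04 and 55.2% negative values over the 10436 genes that reached 1 RPKM in either library or both (the genes tested). None of the 8 differed by 2-fold or more, a size reached upwards by 2.38% and downwards by 1.92% of those genes. None of the 8 was in the authors' deposited lists of genes higher or lower with vitamin C.

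**Figure D1:**
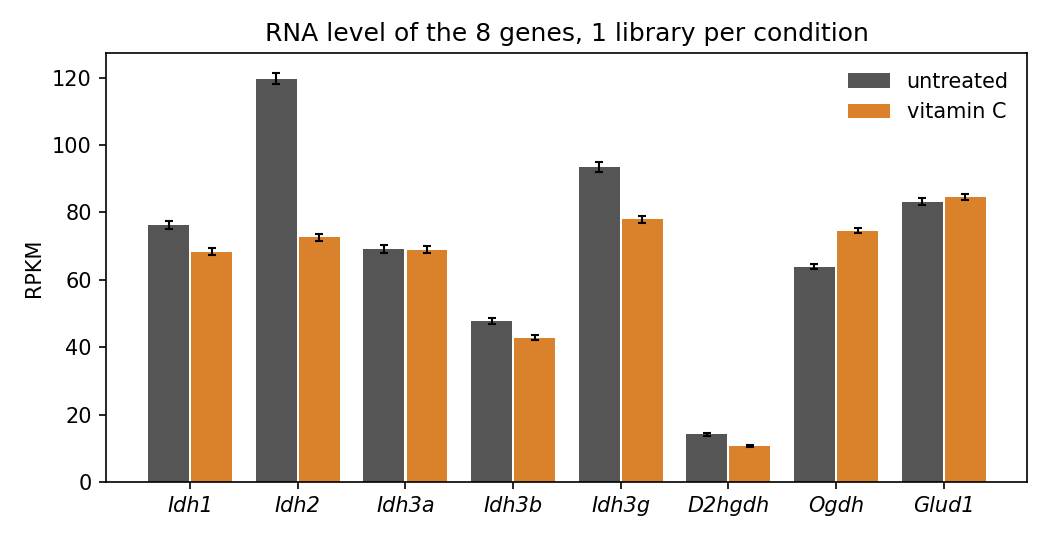
RNA level of the 8 genes in RPKM (y axis, linear from 0) in the untreated and the vitamin C library, with bars for the value of 1 library and error bars for the exact 95% Poisson interval of its reads. Idh2 is highest untreated, at 120 RPKM, and stands among Ogdh, Idh3a and Idh1 with vitamin C, at 72.6, while D2hgdh is lowest in both.

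Idh1, counted together with any vector reads that were assigned to it, had 14018 reads and 76.2 RPKM (74.9 to 77.5) untreated. With vitamin C it had 16061 reads and 68.3 RPKM (67.3 to 69.4). The ratio was 0.897 (exact binomial interval 0.876 to 0.917), or −0.16 on the log2 scale, and 35.5% of the genes tested had a lower value. Idh2 had 22522 reads and 120 RPKM (118 to 121) untreated, the highest level of the 8. With vitamin C it had 17459 reads, fewer although the library was deeper, and 72.6 RPKM (71.5 to 73.7). Its ratio was 0.607 (0.595 to 0.619) and its log2 difference −0.72, and 4.23% of the genes tested had a lower one. At a fold of 1.5 it was the 1 gene of the 8 that passed, where 6.64% of the genes tested passed downwards and 6.21% upwards. Among all genes by level it moved from position 521 to position 1061. The level of Idh2 was 1.57 times that of Idh1 (1.54 to 1.60) untreated and 1.06 times (1.04 to 1.09) with vitamin C, so the 2 NADP+ enzymes, which are compared per length of gene model, lay close together in the treated library.

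The subunits of the NAD+ enzyme did not differ alike between the libraries. Idh3a, the catalytic alpha subunit, had 12080 and 15388 reads and stood at 69.1 RPKM (67.9 to 70.4) untreated and 68.9 (67.8 to 70.0) with vitamin C. Its ratio of 0.997 had an interval of 0.973 to 1.02, so a difference was not detectable at this depth, and its sign turned from −0.005 to 0.04 when the libraries were scaled to a median ratio of 1 over genes. Idh3b, the beta subunit, had 11895 and 13609 reads and 47.8 RPKM (46.9 to 48.7) and 42.8 RPKM (42.1 to 43.5), a ratio of 0.895 (0.873 to 0.918). Idh3g, the gamma subunit, which with beta forms the regulatory part, had 18356 and 19550 reads and 93.5 RPKM (92.1 to 94.8) and 77.9 RPKM (76.8 to 79.0), a ratio of 0.833 (0.817 to 0.850). Gamma was the most abundant of the subunit RNAs in both libraries and beta the least. The level of Idh3g over that of Idh3a was 1.35 (1.32 to 1.38) untreated and 1.13 (1.11 to 1.15) with vitamin C, and that of Idh3a over Idh3b was 1.45 (1.41 to 1.48) and 1.61 (1.57 to 1.65). Summed over the 5 isocitrate dehydrogenase genes, with any vector reads in Idh1, the level was 406 RPKM untreated and 331 with vitamin C. Most of that gap came from Idh2 alone, at 120 and 72.6 RPKM.

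D2hgdh, the enzyme that removes D-2-hydroxyglutarate, was the lowest of the 8 genes in both libraries. It had 4241 and 4129 reads and stood at 14.1 RPKM (13.7 to 14.5) untreated and 10.7 RPKM (10.4 to 11.1) with vitamin C. Its ratio was 0.762 (0.730 to 0.795) and its log2 difference −0.38, with 15.3% of the genes tested lower. The level of Idh1 with any vector reads was 5.41 times that of D2hgdh (5.22 to 5.60) untreated and 6.36 times (6.15 to 6.58) with vitamin C. Ogdh, the thiamine-dependent component of the 2-oxoglutarate dehydrogenase complex, was the member with the highest ratio. It had 25359 and 37771 reads and 63.9 RPKM (63.1 to 64.7) and 74.5 RPKM (73.7 to 75.3), a ratio of 1.17 (1.15 to 1.18) and a log2 difference of 0.22, with 78.6% of the genes tested lower. Glud1 had 24710 and 32152 reads and 83.1 RPKM (82.1 to 84.1) and 84.6 RPKM (83.7 to 85.5), a ratio of 1.02 (1.00 to 1.04). The level of Glud1 over that of Ogdh was 1.30 untreated and 1.14 with vitamin C.

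The order of the 8 levels per length changed between the libraries. Untreated it ran Idh2, Idh3g, Glud1, Idh1, Idh3a, Ogdh, Idh3b, D2hgdh, and no neighbours in that order had overlapping intervals. With vitamin C it ran Glud1, Idh3g, Ogdh, Idh2, Idh3a, Idh1, Idh3b, D2hgdh, and the intervals of Idh3a and Idh1 overlapped. Idh2 thus went from the first to the fourth place and Ogdh from the sixth to the third, while Idh3g, Idh3a, Idh3b and D2hgdh held theirs. How far cultures of one condition differ in these levels is not known from single libraries.

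**Figure D2:**
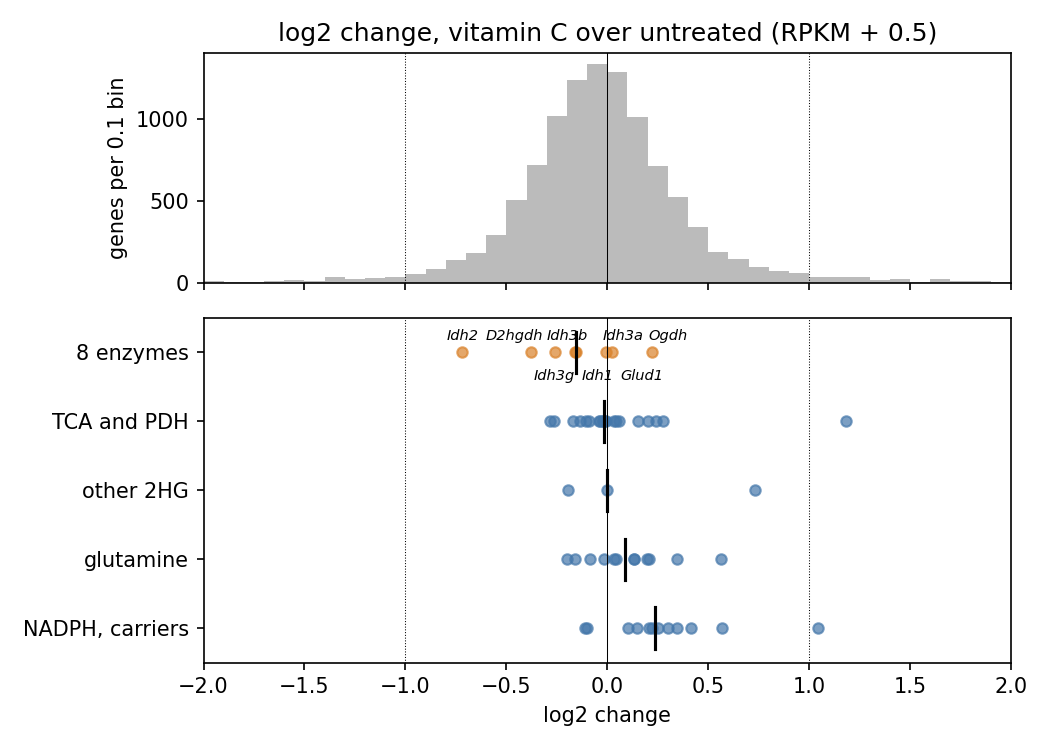
Top, histogram of the log2 difference between the vitamin C and the untreated library (x axis, 0.5 RPKM added) over the 10436 genes tested, drawn between −2 and 2; bottom, each point is 1 gene of the 8 enzymes or of 4 related lists, black bars are list medians and dotted lines mark 2-fold. Idh2 lies farthest left of all points at −0.72, and the list of NADPH enzymes and carriers has the highest median at 0.24.

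Around the 8 genes, the other genes of the cycle showed little difference in sum and single genes stood apart. Of 22 genes of the TCA cycle and pyruvate dehydrogenase, 20 were tested, with Dhtkd1 and Ogdhl below 1 RPKM. One was 2-fold or more higher, none lower, and the median log2 difference was −0.02. That gene was Pcx, pyruvate carboxylase, at 5.57 RPKM untreated and 13.3 with vitamin C, and it was also in the authors' deposited list of higher genes. The next by size were Fh1, fumarate hydratase, at 41.7 and 34.2 RPKM, Dlat, the acetyltransferase of pyruvate dehydrogenase, at 17.8 and 21.7, and its E1 alpha subunit Pdha1, at 63.3 and 52.7. Idh2 had a lower log2 difference than any of the 20 genes, the lowest of which was −0.28. Of 5 other genes for enzymes that make or remove 2-hydroxyglutarate, 3 were tested and none differed by 2-fold. Ldha, a lactate dehydrogenase that can also make L-2-hydroxyglutarate, stood at 372 RPKM untreated and 618 with vitamin C. Phgdh, the first enzyme of serine synthesis, stood at 110 and 96.1 RPKM. Adhfe1 and Ldhb were below 1 RPKM.

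Glutamine and glutamate enzymes gave 12 tested genes of 14, none past 2-fold and a median log2 difference of 0.09. Oat, ornithine aminotransferase, stood at 55.9 RPKM untreated and 82.7 with vitamin C. Gpt2, the mitochondrial alanine aminotransferase, stood at 9.65 and 12.4, and glutamine synthetase Glul at 11.1 and 9.59. Genes that supply NADPH or carry citrate and 2-oxoglutarate gave 12 tested of 14, of which 10 had positive and 2 negative log2 differences, with a median of 0.24. Me1, the cytosolic malic enzyme, was the 1 gene past 2-fold, at 9.13 and 19.4 RPKM, and was in the authors' deposited list of higher genes. Mthfd2 of mitochondrial folate metabolism stood at 56.5 and 84.1 RPKM, the dicarboxylate carrier Slc25a10 at 11.0 and 14.8, and G6pdx, the entry enzyme of the pentose phosphate pathway, at 94.7 and 120. Idh1, counted with any vector reads, and Idh2, the isocitrate dehydrogenases that make NADPH, both had values below that list's lowest log2 difference of −0.11. That lowest value was of Nnt, whose ratio interval of 0.891 to 0.956 overlaps that of Idh1, 0.876 to 0.917.

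Peaks were counted in the gene spans widened by 50 kb on each side, 1015326 bp in all. H3K4me1, a histone mark of enhancers, had 68 untreated peaks and 36 with vitamin C there, 52.9% as many, while its whole list held 57750 and 45657, or 79.1% as many. Of the 68, 16 overlapped a vitamin C peak by 1 bp or more, which is 23.5% (14.1 to 35.4), beside 41.1% of the whole untreated list. Without the window of Ogdh, which held 13 of the 68, the share was 9 of 55, or 16.4% (7.77 to 28.8). H3K4me3, a mark of promoters, had 52 and 53 peaks, of which 43 untreated ones, 82.7% (69.7 to 91.8), were found with vitamin C, beside 90.5% of its list. H3K27ac, found on promoters and enhancers in use, had 47 and 44 peaks and 42 shared, 89.4% (76.9 to 96.5), beside 86.6% of its list. Peaks of 1 library are not replicates, the depth behind the lists is unknown, and lists of different length show no change by themselves.

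**Figure D3:**
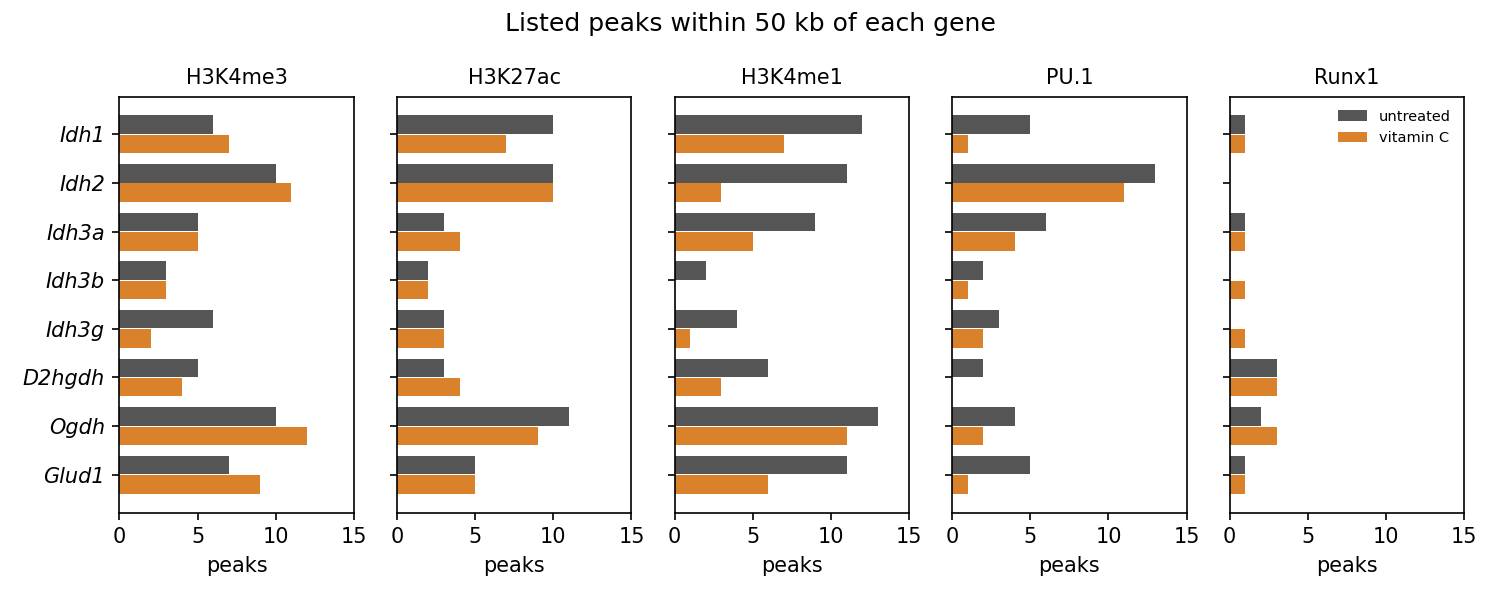
Number of listed peaks (x axis) within 50 kb of each gene span for 3 histone marks, PU.1 and Runx1, in the untreated and the vitamin C library, 1 library each. H3K4me1 peaks are fewer with vitamin C around each of the 8 genes, from 12 to 7 at Idh1 and from 11 to 3 at Idh2. The whole H3K4me1 list is also shorter with vitamin C, and the share of all gene windows with fewer peaks was not computed. H3K4me3 and H3K27ac counts differ by 4 or fewer, as H3K4me1 counts do at Idh3a, Idh3b, Idh3g, D2hgdh and Ogdh.

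Each of the 8 windows held fewer H3K4me1 peaks with vitamin C, beside a list that was itself shorter. The share of all gene windows with fewer peaks was not computed, so this count is not read as particular to the 8 genes. There were 12 and 7 around Idh1, 11 and 3 around Idh2, 9 and 5 around Idh3a, 2 and 0 around Idh3b and 4 and 1 around Idh3g. D2hgdh had 6 and 3, Ogdh 13 and 11 and Glud1 11 and 6. Within the spans of the 8 genes the counts were 20 untreated and 6 with vitamin C, where the spans of all protein-coding genes held 33427 and 26765. The 6 lay in Idh2 (1), Ogdh (2) and Glud1 (3). The RefSeq span of Idh2 also reaches before the start listed in the promoter table. Over that span the untreated list held 4 peaks, the widest of which, 8090 bp, covered the start, while 1 lay 2291 bp before it. The vitamin C list held 1 peak of 6081 bp there, which began 1212 bp past the start. In Idh1 the untreated list held 4 peaks and the vitamin C list none. In Glud1 the lists held 3 each, and the vitamin C list also held 3 peaks before the start, whose near edges were 5328, 2434 and 830 bp from it, and the nearest untreated peak on that side ended 10237 bp from it. The H3K4me3 count near Idh3g was 6 untreated and 2 with vitamin C, with both vitamin C peaks at places also listed untreated.

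At the promoters, both active histone marks were listed in both conditions. H3K4me3 and H3K27ac peaks overlapped a promoter window of 7 of the 7 genes that have one, untreated and with vitamin C. Among the 8090 genes with at least 1 RPKM and a window, 94.1% and 94.4% carried H3K4me3 and 86.1% and 85.6% H3K27ac, so these counts are close to the background. The low-coordinate end of Idh3a, used for that gene in place of a start, was also covered by both marks in both libraries. H3K4me1 overlapped the promoter window of Idh2 untreated and of none of the 7 with vitamin C, where 25.9% and 16.6% of expressed genes carried it.

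**Figure D4:**
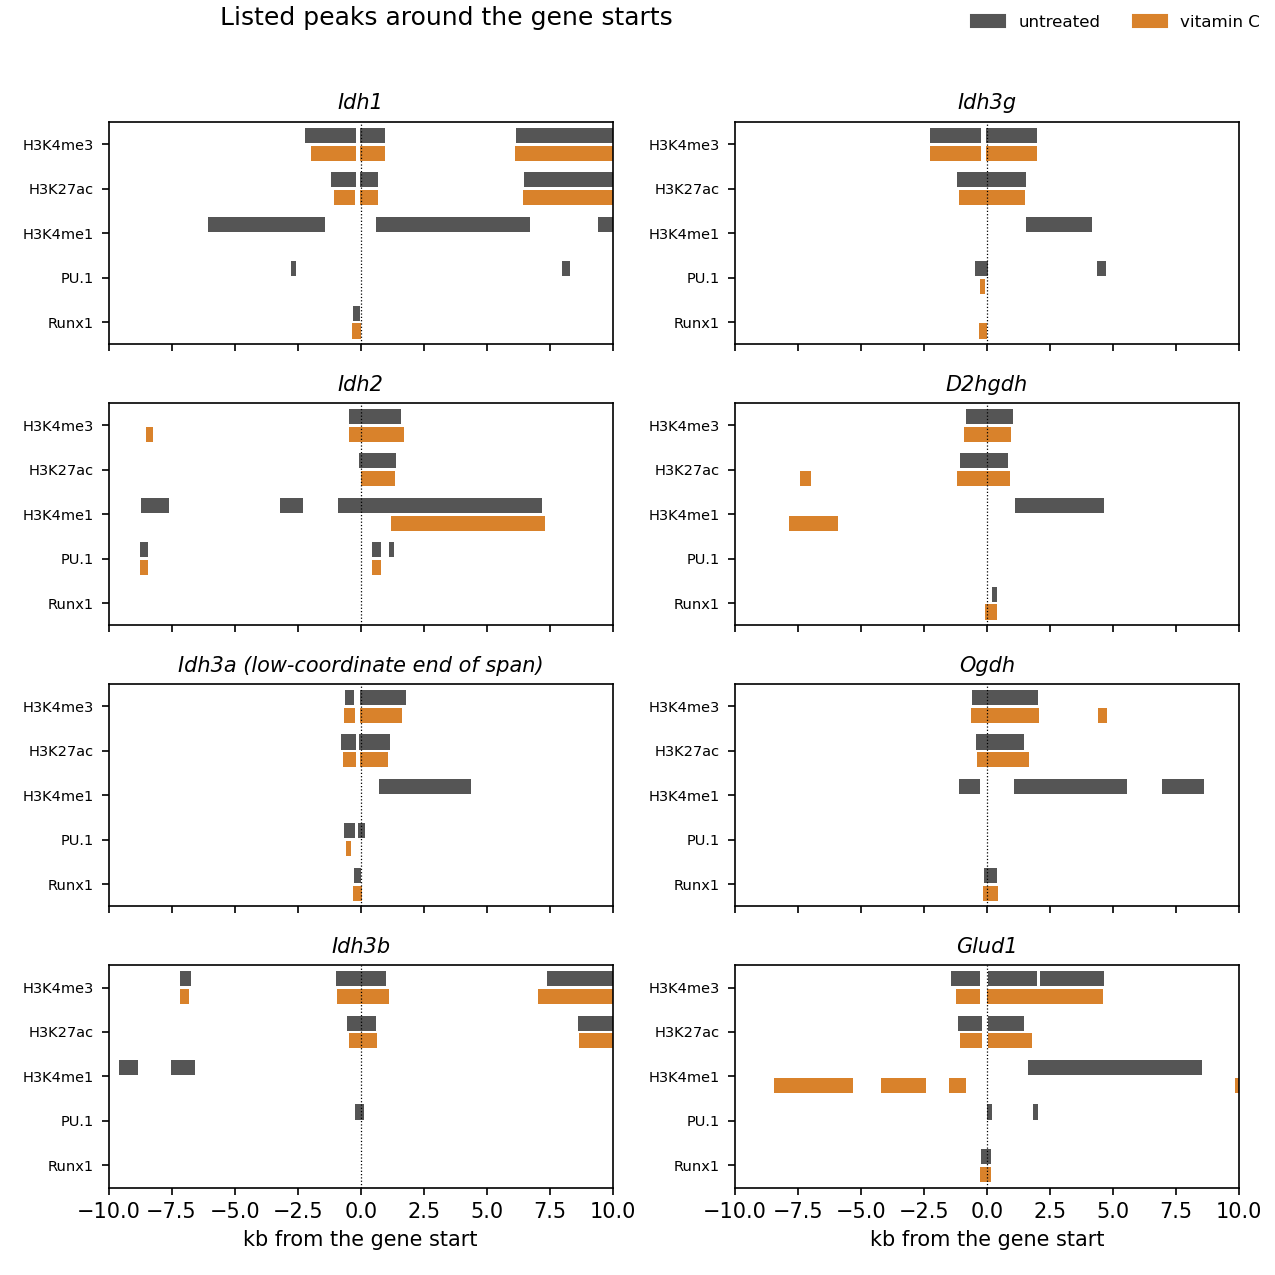
Listed peaks from 10 kb before to 10 kb after the most upstream listed start of each gene (x axis, kb, in the direction of the gene; for Idh3a from the low-coordinate end of its span), drawn to scale for each mark in the untreated and the vitamin C library. H3K4me3 and H3K27ac lie at each start in both libraries, and the H3K4me1 peaks past the starts are mostly untreated. Idh1 and Idh2 have no PU.1 or Runx1 peak over the start drawn, and the Runx1 peaks of Idh1 end 40 bp (untreated) and 9 bp (vitamin C) before it.

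PU.1, a transcription factor of myeloid cells, had 40 untreated peaks in the 8 windows and 22 with vitamin C, 55% as many, while its whole list held 61611 and 23522, or 38.2% as many. Of the 40, 21 were found with vitamin C, 52.5% (36.1 to 68.5), beside 36.1% of the whole untreated list. The window of Idh2 held 10 of the 21, from 13 untreated peaks, and without it 11 of 27 were found, or 40.7% (22.4 to 61.2). That window also holds Zfp710, so its peaks cannot be assigned to Idh2 from these lists. Within the spans of the 8 genes PU.1 peaks numbered 13 untreated and 2 with vitamin C, where the spans of all protein-coding genes held 30275 and 11907. The 2 lay in Idh2 and Glud1. Over the promoter windows PU.1 was listed untreated at Idh3b, Idh3g and Glud1, with the authors' scores of 16.8, 48.4 and 5.42, and with vitamin C at Idh3g, with 9.79. That is 3 of 7 genes and 1 of 7, where 29.5% and 11.6% of expressed genes carried such a peak, and 62.6% of all genes with an untreated promoter peak lacked one with vitamin C. The Idh3b peak, from 130284337 to 130284667 of chromosome 2, held the GAGGAAG match shown above. The untreated peak of Idh3g covered its start, and the vitamin C peak ended 59 bp before it, over the stretch with the 4 GGAAG matches.

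Away from the promoters, the strongest PU.1 peaks around the genes were listed in both libraries. The strongest lay 32263 bp past the start of Glud1, inside the gene, with scores of 204 untreated and 87.7 with vitamin C. The next lay 39271 bp before the start of Idh2, with 175 and 71.4. Another pair in the window of Idh2 scored 163 each untreated and 86.4 and 86.9 with vitamin C. The first lay 39974 bp past the start of Idh2, beyond the end of the gene, and the second 27884 bp before the start. The nearest PU.1 peak to the start of Idh2 lay 434 bp inside the gene, with 35.2 and 13.6. At Idh3a the nearest lay over the low-coordinate end and was listed untreated with 6.50, and another 215 bp before it had 43.7 untreated and 7.96 with vitamin C. Nearest to a start of Idh1 was an untreated peak at 655 bp with a score of 12.0, and the 1 peak shared there lay 41009 bp before the start with 100 and 14.3. D2hgdh had 2 weak untreated peaks, with scores of 3.19 and 4.97, and none with vitamin C. No PU.1 score was higher with vitamin C in the 21 shared peaks, 10 of them in the window of Idh2, beside 10.3% of the shared peaks of the whole list. The median score of the whole PU.1 list was 8.78 untreated and 7.39 with vitamin C. Scores belong to the authors' separate lists and rank peaks within a list.

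Runx1, a transcription factor of blood cells, had 8 untreated peaks in the windows and 11 with vitamin C, and 8 of the 8 were found again, 100% (63.1 to 100), beside 81.8% of the whole list. Its list was also longer with vitamin C, at 6250 against 3908 peaks. Over promoter windows it was listed untreated at Idh1, Ogdh and Glud1, with scores of 10.0, 12.0 and 3.29, and with vitamin C at those 3, with 25.3, 15.8 and 12.8, and at Idh3g and D2hgdh, with 9.00 and 10.7. That is 3 of 7 and 5 of 7 genes, where 25.6% and 45.2% of expressed genes carried such a peak, and 45.8% of all genes with a vitamin C promoter peak lacked one untreated. The low-coordinate end of Idh3a was covered in both libraries, with scores of 11.3 and 38.6. Idh2 had no Runx1 peak in its window in either library, although its promoter held a Runx sequence. The D2hgdh peak ran from 93825160 to 93825637 of chromosome 1, past the Runx sequence shown above, and its untreated counterpart of score 4.30 began 190 bp past the start.

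The strongest Runx1 peak of the 8 windows lay 20646 bp before the start of D2hgdh, with a score of 124 with vitamin C. It covered 974 bp, where the untreated list had 2 peaks with scores of 3.45 and 14.6. The window of D2hgdh also holds Atg4b, Dtymk, Ing5 and Gal3st2, so the peak cannot be assigned to D2hgdh from these lists. Scores were higher with vitamin C in 8 of the 8 shared Runx1 peaks, beside 92.0% of those of the whole list. Of these 8, the 2 untreated peaks named above overlap the same vitamin C peak. The median score of the whole list was 7.78 untreated and 14.5 with vitamin C, so a higher score need not be a higher place within its list.

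Regions listed from 3 methylation assays were few over the genes. In the 6 deposited lists, 19 regions lay within 50 kb of the 8 genes and 4 overlapped a gene span. The lists carry positions with the tags iMR, deMR and iHR, and neither their direction nor the libraries compared is stated in the sources used here, so the tags are given as names. The MeDIP and hydroxymethylated DNA (hMeDIP) lists cover autosomes, which leaves out Idh3g. Regions tagged iHR, from hMeDIP-seq of the vitamin C mutant cells, lay within 50 kb of 4 of 7 genes (Idh2, Idh3a, Ogdh and Glud1), beside 39.2% of protein-coding genes, and over the span of 2 of 7, beside 13.4%. In Idh2 they were a pair of adjoining regions at the 3′ end, from 80094751 to 80095000 and from 80095001 to 80095500 of chromosome 7, over an H3K4me1 peak of the untreated library. In Ogdh 1 region from 6293001 to 6293500 of chromosome 11 lay 422 bp past the nearest listed start, under H3K4me3 and H3K27ac peaks of both libraries and an untreated H3K4me1 peak. At Glud1 the region of 1500 bp lay 968 bp beyond the span, from 34346001 to 34347500 of chromosome 14, over an H3K4me1 peak of the vitamin C library. At Idh3a the region lay 10839 bp beyond the span, over Acsbg1.

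For 5-methylcytosine, the MeDIP iMR list had a region in D2hgdh, from 93836501 to 93837000 of chromosome 1 and 11261 bp past the start, under no listed peak. That list came within 50 kb of 2 of 7 genes (D2hgdh and Idh2), beside 23.2% of genes, and over 1 of 7, beside 7.76%. The deMR list of MeDIP came near 1 of 7, Idh2, beside 29.7%, and over none, beside 9.06%, with a region 34845 bp beyond the span in Zfp710. A further MeDIP list with mutant in its name, filed with the untreated IDH1 wt sample, came near 3 of 7 (Idh2, D2hgdh and Ogdh), beside 32.9%, and over none, beside 10.5%. It had 3 regions around Idh2, the nearest 3893 bp beyond it, and 1 region 1195 bp from D2hgdh, over Ing5. Idh2 had 7 of the 19 regions, the most of the 8 genes, in 4 of the lists. Whole-genome bisulphite sequencing (WGBS) gave 2 of 8 genes near an iMR region (Idh3b and Idh3g), beside 32.1%, and 3 of 8 near a deMR region (Idh1, Idh3b and Ogdh), beside 36.0%. No WGBS region lay over any of the 8 spans, where 11.2% and 12.2% of genes had one. The nearest was 10124 bp before Idh3b, and the deMR region of the Ogdh window, in Zmiz2, lay under peaks of PU.1 and of all 3 histone marks in both libraries. With so few genes these counts are not read as different from those backgrounds.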

How the data were processed

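Gene counts and RPKM values of 2 polyA RNA-seq libraries were used as deposited, with the authors' gene models. Per the submitters' processing notes, reads were aligned to mm10 and the tools named across the samples include BWA, SAMtools, Picard, Novoalign 3.02.08 and MACS2 2.1.0.2, without the step each served. The authors deposited histone peaks with 1 value each that is a p-value or a q-value (which is not stated), PU.1 and Runx1 peaks with a score whose definition is not stated, and methylation regions as positions without a level. Peaks were listed per library. The 8 genes, the gene lists and the rules were chosen with earlier results of these data known.

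Differences are log2 ratios of RPKM with 0.5 added, and genes with at least 1 RPKM in 1 library or more entered the background. Levels carry exact Poisson intervals and ratios exact binomial intervals (scipy 1.17.1). The ratio intervals were run on simulated Poisson counts. Those counts follow the model that the intervals assume, so the run checks the calculation and not its fit to these libraries. Reads without molecular identifiers are not independent molecules, while the intervals treat them as independent. They may therefore be too narrow even for counting error. Depth of 86804487 and 111453443 counts makes the counting error of independent reads small for these genes. Peaks and regions were matched to RefSeq gene spans widened by 50 kb with an overlap of 1 bp, after placing start positions on a 1-based scale. Named were all 8 genes, the 4 genes with the largest differences in each related list (some are not reported here), the peaks over or nearest a gene start, the strongest factor peaks, and all regions over a gene. Other named peaks near Idh2, Glud1, Idh1 and Idh3g were chosen after their values were seen. Pseudocounts, scalings, folds, windows, overlaps and list cut-offs were varied. A planned comparison of the Idh1 and Idh2 proteins was not run, since protein sequences were not used here.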

Additional observations from a re-analysis of the deposited data

How the results depend on the processing

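Idh2 remained the gene of the 8 with the lowest log2 difference under each pseudocount and scaling tried, and no gene passed 2-fold under any of them. At 1.5-fold the count was 1. Scaling to a median ratio of 1 moved all genes by 0.04 and the median of the 8 from −0.16 to −0.11, and turned the sign of Idh3a. The untreated lists were also cut at their median value, and the stronger peaks were matched to the full vitamin C lists. The share found with vitamin C was then 100% for H3K4me3, 100% for H3K27ac and 75% for PU.1. In windows of 10 kb, without that cut, it was 35.3% for PU.1. Shares over all genes were not computed under these settings, so these values are not read as particular to the 8 genes. In windows of 10 kb the number of genes near a region was 0 for MeDIP deMR (14.1% of all genes), 1 for MeDIP iMR (11.2%), 0 for WGBS iMR (16.4%) and 0 for WGBS deMR (18.3%). In windows of 100 kb it was 5 of 7 for the mutant MeDIP list (47.1%), 2 of 7 for MeDIP deMR (42.6%) and 5 of 8 for WGBS deMR (50.7%), and with regions of at least the median length it was 1 for WGBS iMR (18.2%). Narrower windows and longer regions leave fewer regions by construction. Leaving out the window with the most untreated peaks, an alternative chosen after seeing the data, left each share within its interval. No paired analysis was possible because the labels carry no replicate numbers and each group has 1 library, so no library could be left out either. Single libraries limit each value here, and counting error does not measure differences between cultures.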
